A study of Mus musculus with 4 samples.

Results

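The genes described here encode the microtubule motors of the cell: 64 protein-coding genes of the RefSeq GRCm38.p6 table, out of 21774, chosen by symbol alone. Symbols beginning Kif or Klc and a digit gave 42 kinesin genes. Symbols beginning Dync1, Dync2, Dynll, Dynlr, Dynlt, or Dctn and a digit gave 22 genes of dynein and dynactin. For each gene, CTCF binding was read from a chromatin immunoprecipitation (ChIP) experiment in wild-type cortical neurons of Swiss-Webster mice, from cortex of embryonic day 16 grown for 13 days. The treatment label says none, although the labels' culture text mentions a drug. The samples comprised 2 immunoprecipitations with an antibody to CTCF and 2 inputs. The deposited list joins the peaks of both immunoprecipitations, 33820 in all, kept where the irreproducible discovery rate (IDR) did not exceed 0.05.

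Kinesins and dynein carry cargo along microtubules in opposite directions, most kinesins towards the plus ends and dynein towards the minus ends. Neurons depend on both, because vesicles, mitochondria and RNA must travel the length of the axon. Dynactin is the large cofactor that joins dynein to its cargo, and many other kinesins work in the spindle of dividing cells, which neurons no longer form. CTCF, which recognises DNA through its zinc fingers, works with cohesin to anchor chromatin loops. A CTCF peak near a gene is a place of binding and says nothing by itself about expression of the gene, and with no RNA in the list the labelled cell type could not be checked against marker genes.

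The strength of a peak below is the authors' joint value. It adds up what the 2 replicate columns of the list give as −log10 p for that peak, with a median of 165.5 over the whole list. The columns are not tied to a labelled replicate and are called first and second. Their medians were 30.87 and 128.88, and the depth of the libraries is unknown from the list, so depth and binding cannot be told apart in a gap between the columns. With a single joint list there is no value per sample to test. The comparisons below are counts and levels set beside those of all protein-coding genes, with no p-value.

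Of the 42 kinesin genes, 14 (33.3%) had a CTCF summit within 1 kb of an end, and of the 22 dynein and dynactin genes 6 (27.3%), against 29.2% of all protein-coding genes. Both shares were near the background. Deeper inside the gene, more than 1 kb from either end, 29 kinesin genes (69.0%) and 11 dynein and dynactin genes (50.0%) had a summit, against 35.5% of all. Counting everything up to 50 kb outside the gene, 39 kinesin genes (92.9%) and 18 dynein and dynactin genes (81.8%) had at least 1, against 82.9% of all. Within 50 kb, dynein and dynactin genes stood at the level of all genes and kinesin genes above it, and inside the gene both families stood above it. Among peaks above the median strength, 4 of 22 dynein and dynactin genes had one inside, a share below the 22.2% of all. Kinesin genes were long, with a median of 46047 bp for kinesins, against 17148.5 bp for dynein and dynactin genes and 17219 bp for all, and longer genes held more peaks.

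**Figure D1:**
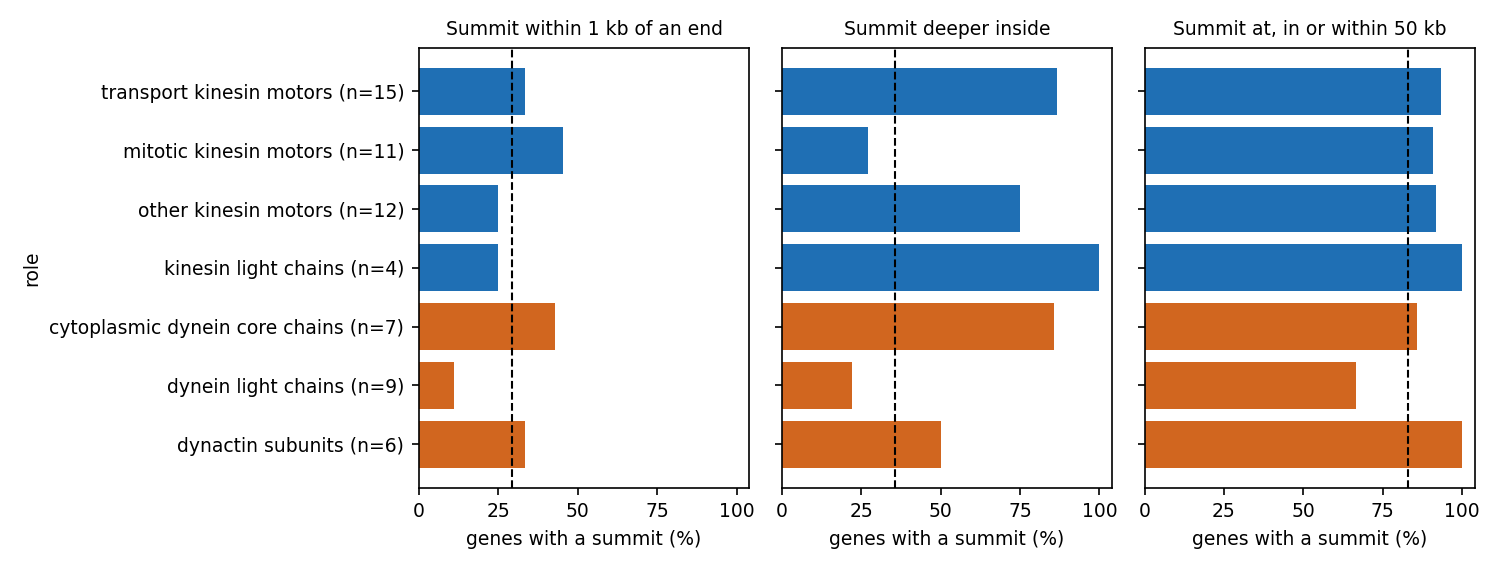
Share of genes (%) with a CTCF summit within 1 kb of an end, deeper inside, and at, in or within 50 kb of the gene, for 4 roles among kinesins (blue) and 3 among dynein and dynactin genes (orange), with the number of genes in brackets. The dashed line is the share of all protein-coding genes; inside the gene, transport kinesins reach 86.7% and mitotic kinesins 27.3%.

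Among the 15 kinesin motors known for carrying cargo along axons and dendrites, 5 (33.3%) had an end peak and 13 (86.7%) a peak deeper inside. Weighted by their length classes, all genes would give 36.9% and 67.0%. These 15 genes held 39 internal peaks in all. Kif1b, which encodes a carrier of mitochondria and synaptic vesicle precursors, had the strongest end peak of any motor gene. Its value was 813 in the first column and 962 in the second, a joint strength of 1775, and only 0.177% of the list was stronger. The summit lay 145 bp outside the annotated start of the gene on chromosome 4, in a peak from 149306636 to 149308917 (mm10). Both columns put this peak far above their medians, and they differed by only 0.24 on the log2 scale.

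The Kif1b promoter is shown because its summit fell on a match to the CTCF core motif. The 210 bases just before the annotated gene (chr4:149307774-149307983, minus strand, RefSeq GRCm38.p6) hold the core in capitals. The promoter of Kif23, the next strongest motor gene with a summit inside its promoter window, is given for comparison (chr9:61946811-61947049, minus strand, 239 bases), and was chosen after its values were seen.
Kif1b: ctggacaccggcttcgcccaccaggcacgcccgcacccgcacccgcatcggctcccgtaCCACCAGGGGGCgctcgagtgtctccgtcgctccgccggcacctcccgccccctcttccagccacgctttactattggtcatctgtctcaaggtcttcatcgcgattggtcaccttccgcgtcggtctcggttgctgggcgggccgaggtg
Kif23: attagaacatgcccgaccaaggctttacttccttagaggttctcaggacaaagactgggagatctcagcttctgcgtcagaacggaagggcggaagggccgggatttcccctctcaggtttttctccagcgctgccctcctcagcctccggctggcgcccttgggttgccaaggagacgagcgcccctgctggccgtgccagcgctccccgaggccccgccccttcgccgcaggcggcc
Counting from the 5′ end, the Kif1b core took bases 60 to 71, and the summit fell on base 66. In Kif23 the summit fell on base 174, and the letters searched were not in the window. Inexact matches were not searched for, so this does not show that CTCF-like letters are absent there.

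The motif was searched on both strands as 12 bases: CC, any 3 bases, AG, any 2 bases, then GGC. A stricter form, contained in the wider one, has A then C as the first 2 of the 3 free bases. The last of them is any base. Promoter windows of 300 bases, 250 before and 50 after an annotated start, were found for 49 of the 64 members, 56 windows in all. The wider form occurred in 7 of these windows (12.5%), against 9.88% of all 21263 protein-coding windows. Kif1b and Kif2a each count the same site in 2 overlapping windows, so the sites are fewer than the windows. The stricter form occurred in 2 (3.57%), both overlapping windows of Kif1b, against 0.654%. Among all windows that held a summit, 33.5% had the wider form, and 6.77% of those without a peak. The other 4 genes with a match, shown with the match in capitals in 30 bases, had no summit inside the window. At Kif17, Kif2a and Dync1h1 a peak still reached into a window with the match (strengths 191, 59.4 and 46.8), its summit lying outside. At Kif1a no peak did.
Kif1a: gtcacagcaCCAGGAGCAGGCagtaagaag
Kif17: cgtgacccgGCCAGCTCCGGGgctcgggtc
Kif2a: ttcccccgcGCCGCCTCACGGctgcggccc
Dync1h1: cgacgccgaCCGCGAGCGGGCgccggtggc
The matches of Kif17 and Kif2a are to the reverse strand of the motif. A match is a description of these letters and not a measured site.

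Kif1a, a vesicle carrier of the same family, differed from it in where its peaks lay. Its end peak (98.9 and 352 in the columns, joint 451) stood 809 bp beyond the finish of the gene, and no summit lay within 1 kb of its outer start. Another 4 peaks lay inside Kif1a, from 42.2 to 244, the strongest 1363 bp from a listed start within the gene. Kif1b also held 3 internal peaks, of 49.9 to 215, all nearer its finish than its start. Kif1c, another relative, had no peak at an end or inside. Its nearest summit was 12639 bp away, in a peak of strength 858 at Camta2 and Inca1.

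Kif13a, a carrier of endosomes, had a pair of peaks at its start. The outer one, 146 bp outside the gene, had 184 and 188 in the columns, and the inner one, 481 bp inside, 35.1 and 17.98. The outer peak was thus strong and even between the columns, and the inner one lay below the second column's median. Both Kif13a and its relative Kif13b held 4 internal peaks (93.9 to 337 and 42.5 to 382). In Kif13b these sat between 44739 and 56672 bp from the upper end, and neither end had a peak. Kif17, which carries glutamate receptor vesicles into dendrites, had 28.2 and 162 at its start (joint 191) and an internal peak of 449.6. Beyond the finish of Kif17, at Pink1, stood a peak of 1402, 24359 bp from the gene, and another of 948.

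The 3 heavy chains of conventional kinesin, Kif5a, Kif5b and Kif5c, are close relatives with quite different surroundings. Kif5a held 5 peaks in 40654 bp on chromosome 10. Of these, 4 lay deeper inside, 9.84 per 100 kb, and 1 was an end peak 989 bp inside the lower end (14.6 and 65.0, joint 79.6). The strongest internal one reached 227. Kif5c held 5 internal peaks in 155493 bp on chromosome 2, from 64.9 to 519, all nearer the finish than the start. A further summit, of strength 51.9, lay 1151 bp beyond the finish, just outside the window. Kif5b, of nearly the same length as Kif5a (40520 bp, chromosome 18), had no summit inside, and the nearest in the list was 97267 bp away.

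**Figure D2:**
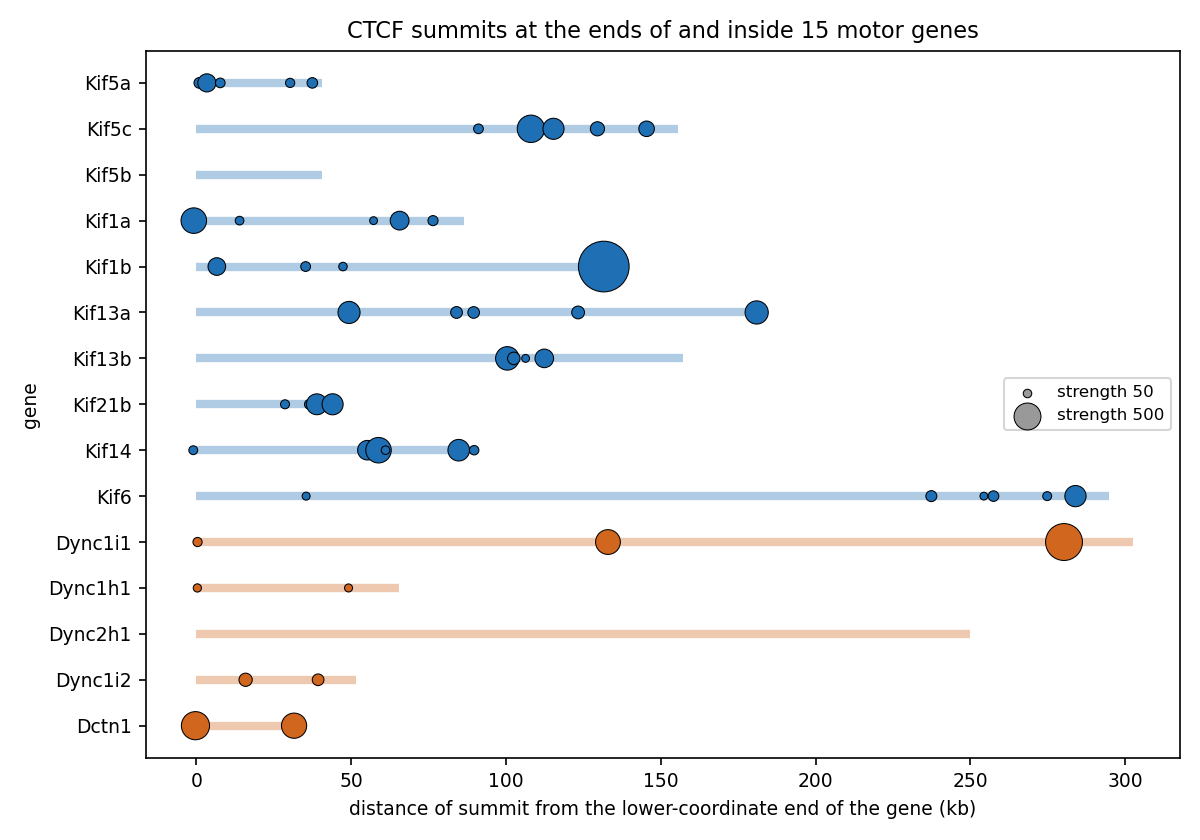
Positions of CTCF summits at the ends of and inside 15 motor genes, as distance (kb) from the lower-coordinate end of each gene; bars span the gene, kinesins in blue, dynein and dynactin in orange, and circle area is the joint strength. The 5 summits of Kif5c lie in its upper part, Kif5b and Dync2h1 have none, and the largest circle is the Kif1b start peak of 1775.

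The other transport kinesins were mostly marked inside rather than at their ends. All genes, weighted to the lengths of the 15 transport kinesins, also had the higher share inside (67.0%, with 36.9% at ends). Kif21b, which also regulates microtubule growth, held 4 internal peaks in 46612 bp (8.58 per 100 kb), from 56.2 to 307. Its relative Kif21a held 2 in 117108 bp, of 38.6 and 154. The heteromeric kinesin-2 genes Kif3a, Kif3b and Kif3c, which work in cilia and axons, held 3, 1 and 2 internal peaks. Their strongest were 327 in Kif3a, 33.8 in Kif3b and 559.6 in Kif3c. The Kif3b peak is among the weakest of the list, with 99.8% of peaks stronger. Kif16b, an endosome motor of 283270 bp, held 2, of 203 and 213.

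Of the 11 kinesin motors of mitosis and cytokinesis, 5 (45.5%) had an end peak, but only 3 (27.3%) a peak deeper inside. At ends, all genes of the same length classes would give 31.9%. Kif23, a motor of the central spindle, had the strongest end peak, 591 and 634 in the columns, a joint strength of 1225. Its summit lay 66 bp outside the start. Kif20b had 24.4 and 148 (joint 173), 519 bp outside its start. The end peaks of Kif14, Kif18b and Kif15 were weak, from 52.1 to 61.4, and at Kif15 the columns were nearly equal (26.0 and 26.1). The Kif15 peak also lay within 1 kb of an end of 1110059G10Rik. The mitotic genes thus ranged from the Kif23 peak, exceeded by 1.13% of the list, to the Kif15 peak, exceeded by 89.4%.

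Inside the mitotic genes there were 6 peaks in all, 4 of them in Kif14 (50.8 to 449) and 1 each in Kif11 (305) and Kif15 (118). This made 1.17 per 100 kb, against 2.72 in the transport kinesins and 1.46 in all protein-coding genes. Leaving out Kif14 took the mitotic list to 0.471, and leaving out Kif5a took the transport list to 2.51. Both omissions were chosen after the values were seen. The median lengths were similar, 45482 bp for mitotic and 46612 bp for transport kinesins. All genes of the same length classes would give a share with an internal peak of 46.2% for the mitotic list, where 27.3% was seen, and 67.0% for the transport list, where 86.7% was seen. Kif2c, a microtubule depolymerase, had none at an end or inside but 10 within 50 kb, the most flanking peaks of any motor gene, up to 787. Kif22 had none either, but 3 outside, the nearest of 512 at 2359 bp and the strongest of 1229 at Pagr1a and Prrt2. Kif4, the chromosome-bound chromokinesin on X, had 7 flanking peaks, the nearest a weak one of 43.4 at 2801 bp, and Kif20a had 1 of 530.0 at 30021 bp.

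Among the other 12 kinesin motors, 3 (25.0%) had an end peak, where all genes of the same length classes would give 33.5%. Kif24, a depolymerase of the centriole, had one at each end. The finish peak (64.2 and 429, joint 493) lay within 1 kb of Ubap1 as well, and the start peak (10.9 and 33.7, joint 44.6) of Nudt2. Kif2a, a depolymerase that trims axon branches, had one of 59.4 with the first column higher (36.6 against 22.8). Kif19a had 32.2 and 43.8 beyond its upper end (joint 76.0), over Btbd17, and a stronger peak of 814 inside, 1918 bp from that end.

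Some of the strongest peaks of this group fell just past the 1 kb window. Kif26b, an atypical kinesin, had a peak of 1233 (421 and 811) whose summit lay 1596 bp inside its start. Its relative Kif26a had 429 and 539.6 (joint 969) at 1398 bp inside its outer start and 836 bp upstream of a listed start. Both peaks were broad, 4514 and 5179 bp against a list median of 1123 bp. Kif12 had 391 at 1186 bp inside its finish. Kif7, a ciliary regulator of Hedgehog signalling, held an internal peak of 578 with the first column higher (313 against 266). Kif6, of 294750 bp, held 6 internal peaks, the most of any motor gene, but 5 were between 42.0 and 83.4 and 1 reached 313. Kif28 held 3 (35.4 to 268), Kif27 1 of 435 and Kif9 1 of 81.2.

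All 4 kinesin light chain genes, which encode the cargo-binding subunits, had a peak inside and 1 had one at an end. For these lengths, all genes would give 33.0% inside and 28.6% at an end. Klc2 had 594 and 709 at its upper end (joint 1303), 717 bp inside the gene, a value exceeded by 0.881% of the list. With 1 more inside (275) and 9 in its flanks, Klc2 had 11 peaks within 50 kb, the highest count of the 64 genes, where the median of all protein-coding genes was 3. Klc1 held 2 internal peaks (75.4 and 86.4), Klc4 1 (254) and Klc3 1 (33.9). Klc3 also had a peak of 787 that lay 1402 bp outside its start.

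**Figure D3:**
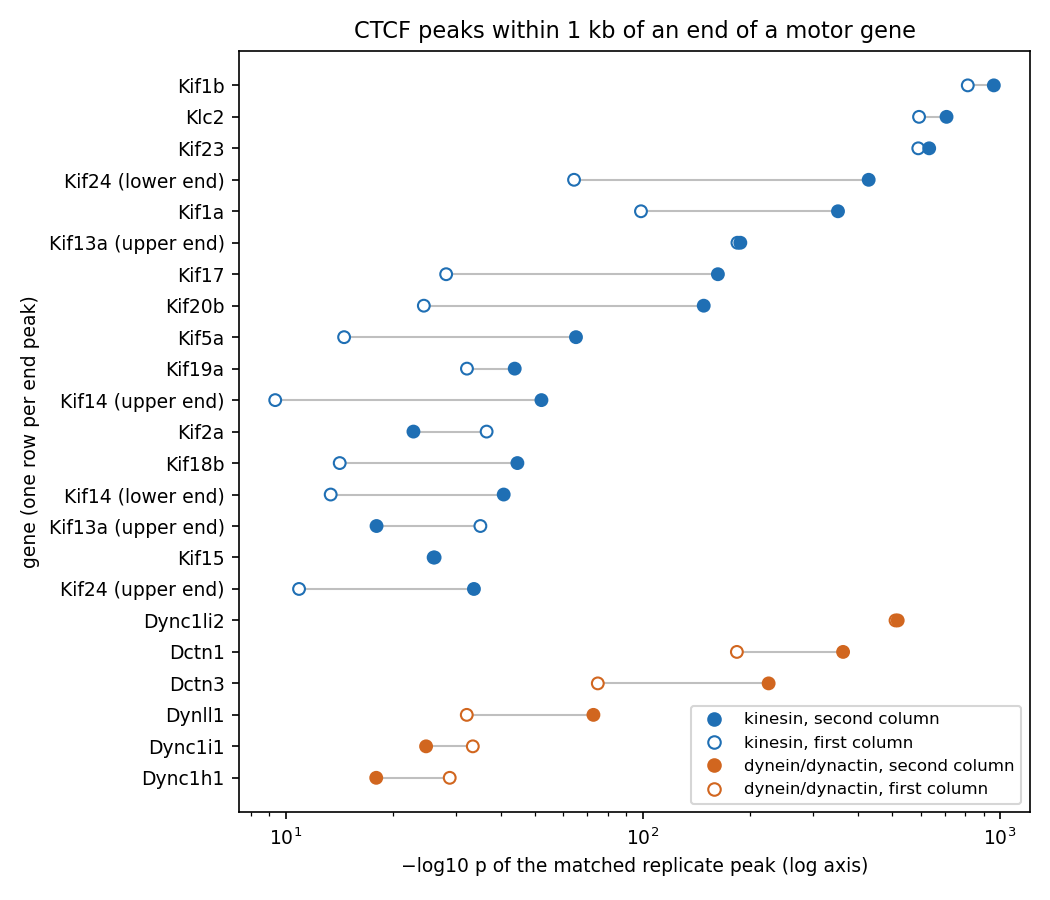
−log10 p of the matched replicate peaks (log axis; open circles first column, filled circles second column) for the 23 summits within 1 kb of an end of a motor gene, kinesins in blue and dynein and dynactin in orange, in order of joint strength within each family. Kif1b, Klc2, Kif23 and Dync1li2 stand above 500 in both columns, and at Kif2a, Dync1i1, Dync1h1 and the inner Kif13a peak the first column is the higher.

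Of the 7 core chains of cytoplasmic dynein, 3 (42.9%) had an end peak and 6 (85.7%) an internal peak. Weighted by their length classes, all genes would give 35.7% and 58.7%. Dync1li2, a light intermediate chain that binds cargo adaptors, had the strongest end peak of the family, 510.3 and 518 in the columns (joint 1028). Its summit lay 14 bp outside the upper end, and a weaker peak of 78.5 lay inside. Its counterpart Dync1li1 had none at an end. It held a single internal peak of 121 and had 6 in its flanks, among them 1146 at 29168 bp beyond its finish. Dync1i1, the intermediate chain gene of 302440 bp, had 33.4 and 24.7 at its start (joint 58.2) and internal peaks of 424 and 941, the latter the strongest inside any dynein or dynactin gene. Dync1i2 had no end peak and internal peaks of 94.3 and 121.

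Dync1h1, which encodes the heavy chain that moves along the microtubule, had only weak peaks of its own: 28.8 and 17.9 at its start (joint 46.8) and 44.5 inside. Its flanks reached 659. Dync2h1, the heavy chain of the ciliary dynein, spans 249757 bp on chromosome 9 (6928550 to 7178306) and had no summit inside. The nearest in the list was 259887 bp away. Of all protein-coding genes of 100 to 300 kb, 81.7% held a summit deeper inside. Dync2li1, its light intermediate chain, held 1 of 204.

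Dynein light chain genes are short, with a median length of 10901 bp. Of 9, 1 had an end peak (11.1%) and 2 an internal one (22.2%), where all genes of the same length classes would give 26.0% and 22.2%. The internal share was thus that of other genes of such length. Dynll1, a hub protein with many partners, had 32.2 and 72.8 at its start (joint 105), 688 bp inside the gene. Dynll2 and Dynlrb1 each held an internal peak, of 81.1 and 42.0. Dynlrb2 had its nearest summit 20731 bp away, with a strength of 357. The 4 Dynlt1 genes lie in tandem over 349.6 kb of chromosome 17 (6306344 to 6655965), and that whole stretch held 1 summit, of strength 58.9, between Dynlt1b and Dynlt1c. Beyond Dynlt1f stood peaks of 301 and 80.9, both within Sytl3. The 4 Dynlt1 genes share synonyms in RefSeq. The promoter windows of Dynlt1c and Dynlt1f, set base against base with no gaps, were 27% identical over 300 bases. The windows were not aligned, so this value cannot show how alike the copies are. Whether reads could be told apart across the genes themselves was not tested.

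Of the 6 dynactin genes, 2 (33.3%) had an end peak, against 29.6% of all genes of the same length classes. All 6 had at least 1 peak within 50 kb, against 82.9% of all genes. Dctn1, the large subunit that grips the microtubule, had 184 and 364 (joint 547) 271 bp outside its outer start and 236 and 202 (joint 439) inside, 2632 bp before its finish. Dctn3 had 74.9 and 225 at its finish (joint 300), shared with an end of Rpp25l. Dctn6 held 2 internal peaks, of 397 and 154, and Dctn4 held 1 of 117. Dctn5 had none closer than 31087 bp, where a peak of 1500.5 stood at Ndufab1.

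Dctn2 and Kif5a serve opposing motors and are neighbours on chromosome 10, where their annotated ends overlap by 87 bp. All 5 summits in the stretch they span (127225695 to 127281959) lay in Kif5a and none in Dctn2. The nearest to Dctn2 was 3092 bp before its start. Kif5a's own peaks are therefore 5 of the 8 counted within 50 kb of Dctn2.

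The difference between the families at gene ends was 6.06 percentage points, and it changed sign with the setting. Kinesins minus dynein and dynactin genes gave −3.68 points where only peaks stronger than the first column's median counted, −1.30 points with windows of 500 bp, and −1.07 points where ends shared with another gene were left out. No direction can be given for it. By length class, 4 of 9 kinesin genes of 10 to 30 kb had an end peak and 1 of 10 dynein and dynactin genes, against 29.6% of all. At 30 to 100 kb they had 8 of 21 and 2 of 5, against 33.7%. Under 10 kb the order was the other way, 0 of 3 and 2 of 5, against 21.5%. At 100 to 300 kb it was 2 of 8 and 0 of 1, against 41.8%, and at 300 kb or more 0 of 1 and 1 of 1, against 47.8%. Weighted by the length classes of the members, all genes would give 33.8% for kinesins and 30.1% for dynein and dynactin genes, close to the 33.3% and 27.3% seen.

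The difference inside the gene was larger over all members. Within length classes kinesin genes had the higher density in all but the longest class, which held 1 gene of each family. The share of genes with an internal peak was higher in dynein and dynactin genes only at 30 to 100 kb. Kinesin genes held 68 internal peaks, or 2.16 per 100 kb, and dynein and dynactin genes 14, or 1.42 per 100 kb, against 1.46 over all genes. Within the classes that hold most members the densities were alike and above those of all genes. At 10 to 30 kb they were 3.51 and 3.42 per 100 kb, against 2.37, and at 30 to 100 kb 2.92 and 2.74, against 1.86. Under 10 kb, with 3 and 5 genes, they were 4.84 and 0, against 2.26. At 100 to 300 kb, with 8 and 1 genes, they were 1.83 and 0, against 1.38. At 300 kb or more, with 1 gene each, they were 0.495 and 0.661, against 0.777. At 10 to 30 kb, 5 of 9 kinesin genes and 5 of 10 dynein and dynactin genes held an internal peak, against 33.1% of all. At 30 to 100 kb it was 15 of 21 and 5 of 5, against 57.2%. All genes of the same length classes would give 54.0% and 37.9%, where 69.0% and 50.0% were seen. With 4 or more internal peaks there were 8 kinesin genes and 0 dynein or dynactin genes, against 4.19% of all. Such counts rise with length: the median of all genes was 2 at 100 to 300 kb and 4 at 300 kb or more. No share by length class was computed for this count. The 8 were Kif6, Kif5c, Kif1a, Kif5a, Kif13a, Kif13b, Kif14 and Kif21b, 6 of them transport kinesins.

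**Figure D4:**
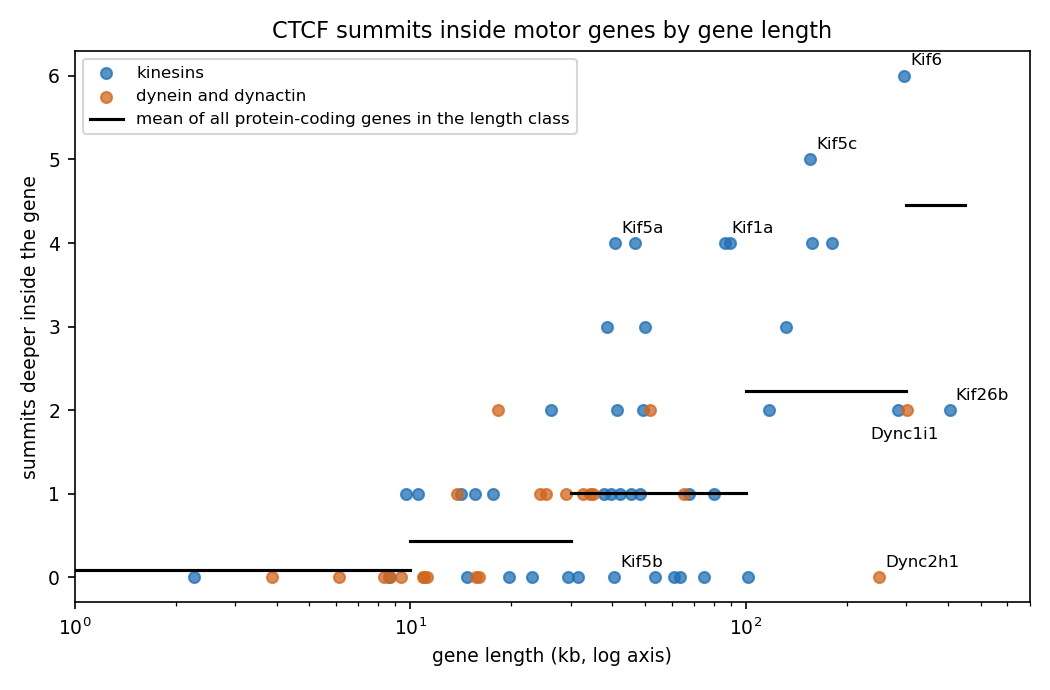
Number of CTCF summits deeper inside each of the 64 motor genes (kinesins blue, dynein and dynactin orange) against gene length (kb, log axis); black lines are the mean of all protein-coding genes in each length class. Kif5a, Kif1a, Kif5c and Kif6 lie above the line of their class, with 4, 4, 5 and 6 summits, while Kif5b and Dync2h1 have 0.

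Strong peaks occurred in both families. An end peak of strength 1000 or more was found at 3 kinesin genes (Kif1b, Klc2 and Kif23) and 1 dynein gene (Dync1li2), against 2.03% of all genes. Anywhere up to 50 kb, 7 kinesin genes and 4 dynein and dynactin genes had such a peak, against 9.99%. The median strength was 79.6 over 17 kinesin end peaks and 202 over 6 end peaks of dynein and dynactin genes, against 160.7 at the ends of all genes. Both sets ran from under 50 to over 1000, so the ranges overlapped almost entirely.

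Where RefSeq gave a strand, the end peaks of motor genes lay mostly at starts. Of 34 such kinesin genes 10 had a summit within 1 kb of the start and 3 of the finish (Kif1a, Kif14 and Kif24). Of 15 dynein and dynactin genes 4 had one at the start and 1 at the finish (Dctn3). Start here means the outer annotated edge of the gene. The start peaks of Dctn1 and Kif14 lay 13951 and 2526 bp from the nearest listed start. Over all 17492 genes with a strand the shares were 24.3% at the start and 6.57% at the finish. Motor genes, at 29.4% and 26.7% for the start, were near that level. By the summit nearest to an end of each gene, the members next to the 1 kb limit were Kif1a (809 bp), Kif19a (878 bp) and Kif5a (989 bp) on the inner side, and Kif5c (1151 bp), Kif12 (1186 bp) and Kif26a (1398 bp) on the outer side. The start peak of Kif14, a gene with a nearer summit at its finish, lay at 979 bp, so its count among starts rests on a peak close to the limit.

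By the median, the second column exceeded the first by less at ends than inside genes. The gap was wide in dynein and dynactin genes and narrow in kinesins. The ratios are signed, so peaks with the first column higher lower the median, and it does not measure closeness of the columns. The log2 ratio of second to first column had a median of 0.50 over 6 dynein and dynactin end peaks and 1.61 over 17 kinesin end peaks, against 0.40 at the ends of all genes. Inside, the medians were 1.76 and 1.87, against 1.95 inside all genes. The first column was the higher at 2 of 17 kinesin end peaks and 2 of 6 dynein and dynactin ones. At the strong starts of Kif1b, Kif23 and Kif13a and at Dync1li2 the ratio was between 0.02 and 0.24, while at Kif17, Kif20b and the finish of Kif24 it was between 2.53 and 2.74.

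**Figure D5:**
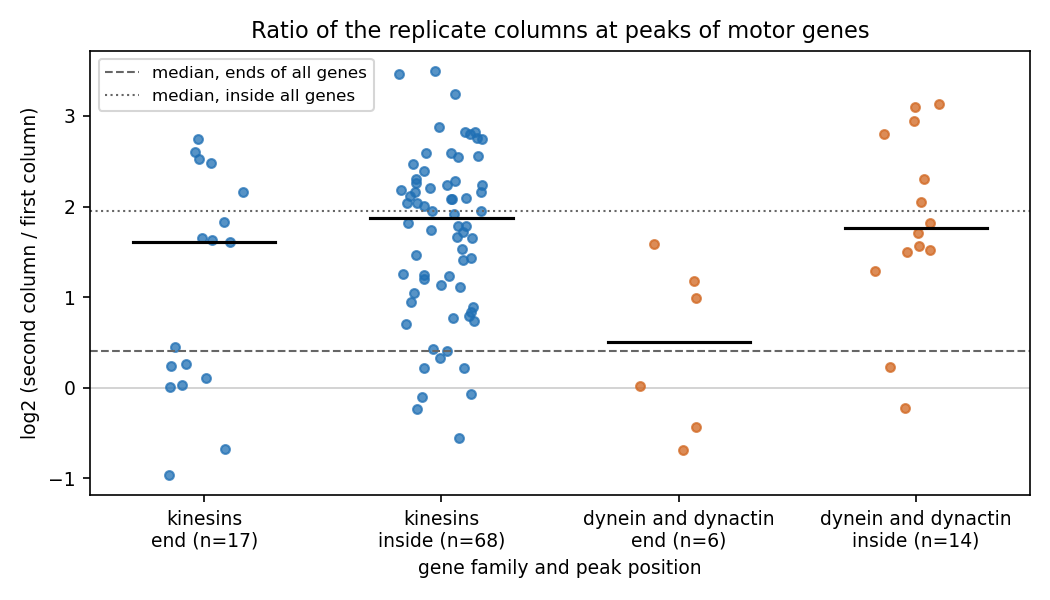
Log2 ratio of the second to the first replicate column at each peak at an end of or inside a motor gene (points; kinesins blue, dynein and dynactin orange; horizontal bars are medians), with the medians at the ends of and inside all genes as dashed and dotted lines. The kinesin end peaks, with a median of 1.61, lie in part near 0 and in part above 2.

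No summit within 50 kb was found at 7 of the 64 genes (10.9%), a smaller share than the 17.1% of all protein-coding genes. It was 3 of 42 kinesin genes (7.14%) and 4 of 22 dynein and dynactin genes (18.2%). The 3 kinesins were Kif5b, Kif18a (nearest summit 197944 bp away) and Kif2b, a gene of 2270 bp with its nearest summit at 286006 bp. The 4 others were Dync2h1, Dynlt1a (159312 bp), Dynlt1c (83907 bp) and Dynlt3 on X (84619 bp). They span a conventional kinesin expressed in most cells, a listed mitotic kinesin, Kif2b from the other kinesin motors, a ciliary heavy chain and light chains. No role is shared by all.

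Other genes of the pathway, taken from lists and not by the symbol rule, were counted in the same way. Of 36 adaptors and regulators, which tie motors to cargo or hold dynactin together, 17 (47.2%) had an end peak, 21 (58.3%) an internal peak and all 36 a peak within 50 kb, against 29.2%, 35.5% and 82.9% of all genes. All genes of the same length classes would give 32.6% at ends and 49.2% inside. The strongest end peaks were at Rhot1 (1012), the mitochondrial anchor of kinesin, Rilp (870), a late endosome adaptor of dynein, and Arl8b (735), a lysosomal GTPase that recruits kinesin. Of 20 C-terminal kinesins, Cenpe and axonemal dynein heavy chains, 9 (45.0%) had an end peak and 14 (70.0%) an internal one. These genes are long, with a median of 187566 bp, and all genes of the same length classes would give 40.5% and 73.6%, near the shares seen. The strongest end peaks were at Kifc5b (1505), Kifc1 (1120) and Kifc3 (1022). Kifc1 and Kifc5b share synonyms in RefSeq, and whether reads could be told apart between them was not tested.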

How the data were processed

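The samples were 2 CTCF immunoprecipitations and 2 inputs. Per the labels' protocols, about 15M neurons went into a replicate, fixation took 10 minutes in 1% formaldehyde, and sonicated fragments ran from 200 to 500 bp. A drug is mentioned in the labels' culture text, although the treatment label says none. FastQC, Trimmomatic, BWA, SAMtools, MACS2, mm10 and GRCm38.p6 are named in the submitters' processing notes. The sources used here do not give versions, thresholds, the use of inputs or the handling of reads from repeated sequence.

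The deposited table has the 20-column layout of the IDR program. The authors' −log10 p of each replicate and their sum are deposited values; the sum was checked in 33820 rows (tolerance 0.001). The deposited score, a rescaled IDR, was not used. The summit is column 2 plus column 10 of the table, and 33815 peaks lay on assembled chromosomes. Genes on scaffolds (348) were left out. A summit was assigned to a gene end (within 1 kb), else to the inside, else to the flank up to 50 kb; promoter windows and strands came from RefSeq GRCm38.p6. Assignment was tested on simulated summits: 200 of 200 were recovered among 21774 genes.

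Members, lists and windows were chosen with earlier results of these data known. The genes named are, per family, the 10 strongest end peaks, the 5 with most internal peaks, those with none within 50 kb, the Dynlt1 genes, those next to the 1 kb limit, those at a shared peak, and the 3 strongest of each other list; further members were named after their values were seen. Alternatives were peaks above the median strength or of either column, a stricter IDR (0.01), overlap by any base, windows of 500 bp and 5 kb, and unshared ends. Python 3.11.15, numpy 2.4.6, pandas 2.3.3 and matplotlib 3.10.9 were used.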

Additional observations from a re-analysis of the deposited data

How the results depend on the processing

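The count of kinesin genes with an end peak, 14 in the whole list, was 8 among peaks above the median of the joint strength, of the first column or of the second, 9 with windows of 500 bp and 25 with 5 kb. The count of dynein and dynactin genes with an end peak, 6, was 3 above the median of the joint strength or of the second column and 11 with 5 kb. Their count with an internal peak, 11, was 4 above the median of the joint strength or of the second column and 3 above that of the first. By construction these settings keep fewer peaks or change the window, and the shares of all genes moved with them. The end share of all genes, 29.2%, was 14.9%, 21.1% and 13.1% above the medians of the joint strength, the first and the second column, 20.4% with 500 bp and 51.3% with 5 kb. Kinesins stood at 19.05% above each of the 3 medians, which is below all genes for the first column and above them for the others. The internal share of all genes, 35.5%, was 22.2%, 21.7% and 22.3% above the 3 medians. Dynein and dynactin genes, with 4, 3 and 4 of 22, fell below each of these shares. Kinesin genes, with 23, 22 and 24 of 42, stayed above them. The difference in end share between the families, 6.06 points, was 13.4 for any base of the peak and 9.52 with 5 kb, and turned to −3.68 above the median of the first column, −1.30 with 500 bp and −1.07 at unshared ends; the cause was not tested. The counts within 50 kb stayed within 1.5 times under each alternative run for them. Leaving out Kif14, an alternative chosen after seeing the data, took the internal density of mitotic kinesins from 1.17 to 0.471 per 100 kb. Leaving out Kif5a, chosen in the same way, took that of transport kinesins from 2.72 to 2.51. No paired analysis was possible because the list joins both immunoprecipitations and holds no value for the inputs, so no replicate could be left out either. The depth of the libraries is unknown, and a gene with no peak may be bound below the limit of detection.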
